A study of Drosophila melanogaster with 9 samples.

Results

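The genes for proteins of the mitochondrial ribosome were followed through 3 cell populations of the Drosophila brain at 2 stages. All genes of the deposited table whose name begins with mRpL (large subunit) or mRpS (small subunit) were taken, which gave 73 of 16854 genes, 47 of the large and 26 of the small subunit. The subunit was read from the name alone, here and in the figures. Whether each protein sits in the subunit of its name was not checked. The cells were sorted from brains without optic lobes of pooled males and females that all carried GH146:Gal4>UAS:tomato over CyO and MB247:LexA>LexAop:GFP over TM2. Kenyon cells (KC) were the GFP-positive cells, olfactory projection neurons (PN) the tomato-positive cells, and the remaining population (DN) was negative for both. Each was profiled at 45 h after puparium formation (45 h APF), with 1 library from a pooled sample, and in the adult, with 2 libraries per population in the labels, which the authors had averaged into 1 column. GH146 marks many but not all projection neurons and some other neurons, and DN is whatever remained, so each population is the cells of a driver, or of none, and not a pure type.

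The mitochondrial ribosome translates the few messenger RNAs of the mitochondrial genome, which in animals code for core subunits of the respiratory chain and of ATP synthase. Its ribosomal RNAs come from the mitochondrial genome, but all its proteins are coded in the nucleus, made in the cytosol and imported. Many of them descend from bacterial ribosomal proteins, and others were added in the mitochondrion. Neurons lean on respiration for their energy, and flies with a mutated tko, which codes for the ribosomal protein S12 of the mitochondrion, are known for seizures after mechanical shock.

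The unit is FPKM, in which the authors divided reads by transcript length and library size, and differences are given between values of log2(FPKM + 1). With 1 value per population and stage there is no replicate error for any single value, and the differences within a stage are sizes without a test. In bulk samples fewer cells of a type and less RNA per cell cannot be told apart. The 6 columns summed to between 611610 and 1055098 FPKM, with larger sums at 45 h, and adult libraries were read for 50 bases and pupal ones for 75, so stage, read length and sequencer cannot be told apart. The median over all 8867 genes whose mean reached 1 FPKM differed by -0.26 (KC), -0.30 (PN) and -0.17 (DN) on the log2 scale between adult and pupa, and stage differences below are read against these shifts. By summed levels the populations carried their markers, though not every marker gene did so singly. The summed level of 3 projection neuron genes was 73.9 FPKM in PN at 45 h, against 0.936 in KC and 7.25 in DN, and 221 against 0.293 and 11.4 in the adult. Most of the PN sums came from Oaz (66.0 and 172 FPKM), and vvl was at 0.860 in pupal PN against 4.10 in DN. The summed level of 6 Kenyon cell genes was 904 FPKM in KC, above 32.1 for PN and 61.2 for DN, at 45 h, and 1268 against 177 and 99.3 in the adult. Of these genes, toy was at 35.3 FPKM in pupal KC against 39.3 in DN, and Mef2 at 112 in adult PN against 125 in adult KC. The summed level of 6 glial genes was 73.7 FPKM in pupal KC, 652 in pupal PN and 319 in pupal DN, and 20.8, 14.1 and 150.2 in the adult, and no glial gene was listed at 0. The summed level of 5 neuron genes was 199 FPKM for KC, 260.4 for PN and 422 for DN at 45 h and 1046, 3305 and 921 in the adult, so it was higher in each adult column and highest in adult PN; its part in the members' differences was not tested. Both hemocyte genes (Hml and He) summed to at most 0.0152 FPKM in any column. Muscle genes summed to 151 FPKM in DN at 45 h and to at most 5.78 elsewhere, and genes of dividing cells to between 0.200 and 19.5, with Mhc and stg listed at 0 in at least 1 column.

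All 73 genes were expressed in every column, from 19.1 FPKM (mRpS30 in adult KC) to 479 FPKM (mRpS18A in KC at 45 h), so the filter on low values removed none. The median over members at 45 h was 131 FPKM for KC, 105 for PN and 104 for DN, and in the adult 85.8 for KC, 92.6 for PN and 106 for DN. The middle members spread from 96.1 to 190.3 FPKM (lower to upper quartile) in pupal KC and from 55.9 to 120 in adult KC. The column with the highest median was therefore KC at 45 h and the lowest was KC in the adult. Summed, the genes took 1.36%, 1.13% and 1.22% of all protein-coding FPKM in pupal KC, PN and DN, and 1.15%, 1.23% and 1.61% in the adult.

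**Figure D1:**
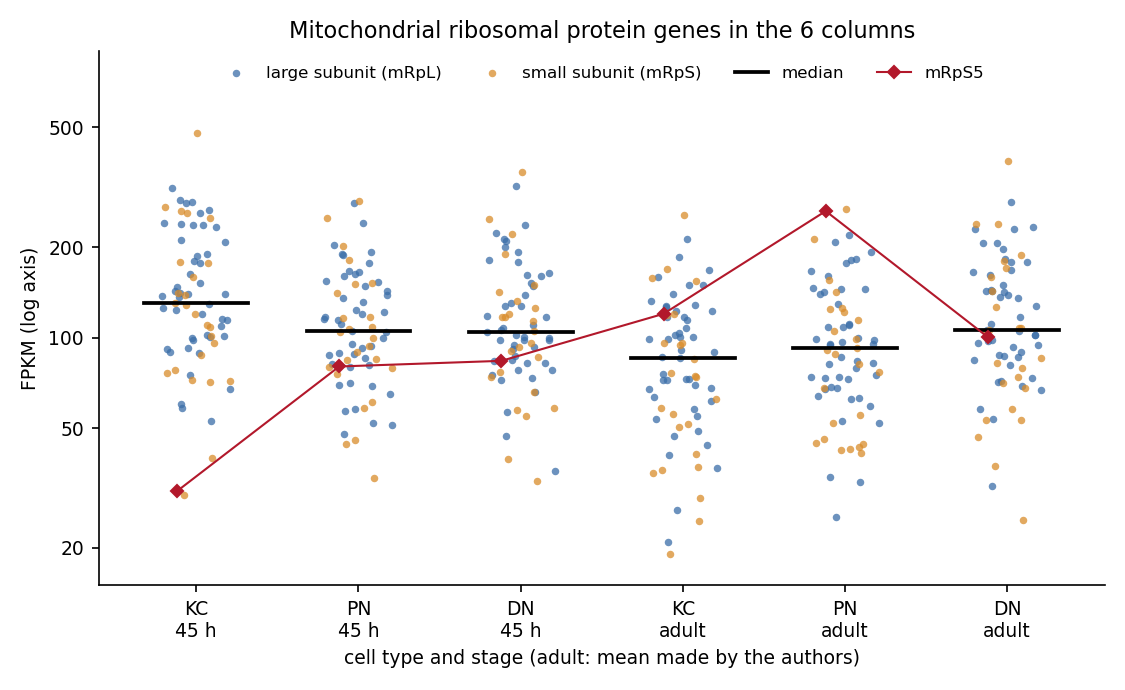
FPKM (log axis) of the 73 mitochondrial ribosomal protein genes in the 6 columns, with each point a gene, blue for the large and orange for the small subunit, and the black bar the median. The median is 131 FPKM in pupal and 85.8 in adult KC, and it is 104 and 106 in DN; the red line joins the values of mRpS5, which is near the bottom in pupal KC and near the top in adult PN.

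The level of a member was steadier over the columns than that of most genes. The standard deviation of log2(FPKM + 1) over the 6 columns had a median of 0.35 for the members, against 0.64 for the 3202 protein-coding genes in the same range of mean FPKM. For 41 of the 73 the highest column was less than 2-fold above the lowest, and for 5 it was more than 3-fold above. By mean over the columns, the highest members were mRpS18A (338 FPKM), mRpL27 (242), mRpL33 (235) and mRpS33 (230), and the lowest were mRpS9 (33.0), mRpS30 (37.0), mRpL11 (40.4) and mRpL40 (51.8). FPKM across these genes went with length. Over the 73 genes the mean log2 level had a Pearson r of -0.49 with log2 exon length and a Spearman rho of -0.45 with exon length, which ran from 327 to 2078 bases. This correlation is across genes that share the same libraries.

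At 45 h the members stood higher in Kenyon cells than in the other populations. Of 73, 64 were higher in KC than in PN (background over all genes kept, 51.1%) and 62 higher than in DN (background 50.5%), which are comparisons that share the KC column. The median difference was 0.33 against PN and 0.29 against DN, beside 0.02 for all genes kept in each. The differences were small: none was at least 2-fold higher than in PN (background 9.07%) and 1, mRpL48, was against DN (background 9.54%), while mRpS5 alone was at least 2-fold lower against PN (background 18.1%) and DN (background 19.9%). PN and DN were close, with a median of -0.02 and 34 of 73 higher in PN (background 52.8%), and no member was 2-fold apart in either direction (backgrounds 7.31% and 9.36%). KC was the highest of the 3 populations for 59 members (background 42.2%), PN for 7 (28.3%) and DN for 7 (29.5%), and PN was the lowest for 37 (27.1%). The KC-to-PN median was 0.11 for the 30 members that overlap no other gene. With all columns scaled to 1 sum the KC-to-DN median was 0.04, beside -0.20 over all genes kept. With quantile normalization the medians were 0.22 against PN and 0.10 against DN, beside 0.09 and 0.05 over all genes kept. The glial sum given above was lower in KC at this stage, as were 5 of the 6 glial genes against PN and against DN. The other, wrapper, was highest in KC, at 49.0 FPKM against 14.1 in PN and 43.0 in DN. The part of glial genes in the difference was not tested.

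Examples come from the large subunit. The gene mRpL48 had 281 FPKM in pupal KC, 167 in PN and 130.1 in DN, a difference of 1.11 against DN. For mRpL38 the same values were 124, 69.5 and 72.1 FPKM, with 0.82 against PN and 0.77 against DN. The gene mRpL4, whose bacterial counterpart lines the tunnel through which the new protein leaves, was at 114, 65.0 and 78.2 FPKM (0.80 against PN). Another tunnel protein gene, mRpL22, was at 266, 193 and 148 FPKM (0.84 against DN). Among members named mRpS, mRpS18A had 479 FPKM in KC, above 285 for PN and 356 for DN (0.74 and 0.43). The gene mRpS24 was at 250.3, 152 and 149 (0.72 and 0.74). In each of these genes KC was above both other populations. The members that went the other way against both PN and DN were mRpS5, mRpS30 (29.9 FPKM in KC against 44.2 and 39.4), mRpL35 (88.8 against 120.2 and 101), mRpL3 (74.9 against 94.9 and 86.9) and mRpS17 (131 against 140.5 and 142), with mRpL55 (115.2 against 122 and 117) the closest to equal.

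In the adult the order was turned: DN stood highest and KC lowest. Of 73 members, 67 were lower in KC than in DN (background 47.6%) and 59 were lower in PN than in DN (background 50.3%), again with a shared column. Median differences were -0.48 for KC minus DN, -0.30 for PN minus DN and -0.21 for KC minus PN, where 48 members were lower in KC (background 49.1%) and 25 higher (background 50.4%); against DN 6 were higher (background 51.9%). Those over all genes kept were 0.03, -0.01 and 0.01. At least 2-fold lower in KC were 4 members against DN (background 13.1%) and 3 against PN (background 19.9%), and none was as much higher (backgrounds 8.39% and 12.1%). PN was at least 2-fold below DN for 2 members (background 9.49%) and above it for 1, mRpS5 (background 16.9%). DN was the highest population for 55 members (background 28.9%), PN for 14 (35.9%) and KC for 4 (35.2%). The glial sum was also highest in DN in the adult, and the part of glial genes was not tested. Short genes as a class stood lower in adult PN: genes in the members' range of exon length (485 to 1415 bases, the 5th to 95th percentile) had a PN minus DN median of -0.32, so the members' -0.30 lay 0.02 above it.

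The gene mRpL3, whose bacterial counterpart lies by the catalytic centre of the large subunit, had 26.8 FPKM in adult KC, 74.1 in PN and 71.9 in DN, a difference of -1.44 against PN and -1.39 against DN. The gene mRpS22, which has no bacterial counterpart, was at 29.3, 44.1 and 68.0 FPKM (-1.19 against DN). For mRpS21 the values were 37.0, 55.2 and 79.1 FPKM (-1.07 against DN), and for mRpS30, at 19.1, 52.2 and 37.4, the difference was -1.41 against PN. In these genes KC was the lowest of the 3, as it was for 46 members (background 33.6%). The gene mRpL44, whose human counterpart has the fold of a double-strand RNA nuclease, was instead lowest in PN, at 25.3 FPKM against 46.9 in KC and 71.4 in DN (-1.46 for PN minus DN). Likewise mRpL10, the base of the stalk that binds translation factors, had 33.1 FPKM in PN, below 49.0 in KC and 69.0 in DN (-1.04 for PN minus DN). DN was the lowest population in the adult for mRpS5 and mRpS7 (background 27.7%).

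**Figure D2:**
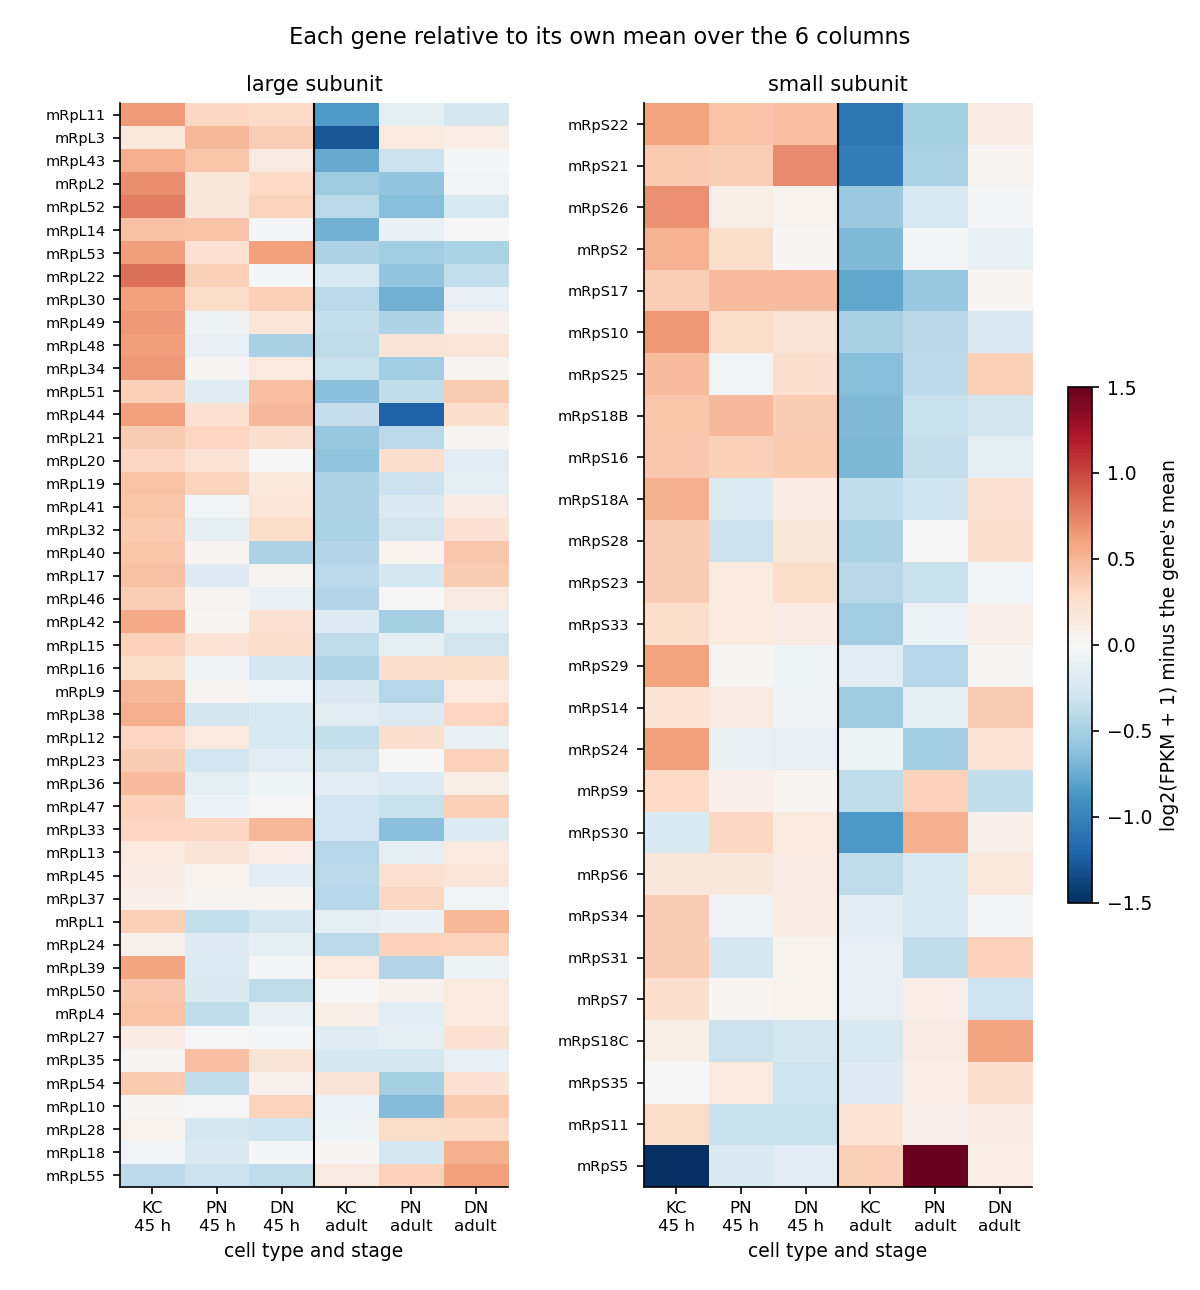
Each row is a member and each column a population and stage; colour is log2(FPKM + 1) minus the gene's mean over the 6 columns, red higher and blue lower, with full colour at 1.5 and beyond. Rows are ordered by the KC stage difference; the column of pupal KC is the reddest and that of adult KC the bluest, and mRpS5, the last row of the small subunit, runs the other way.

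Within each population the stages were compared next. Between 45 h and the adult, 70 of 73 members were lower in adult KC (background 59.2%) and 3 higher (background 39.3%), with a median of -0.76, and 20 were at least 2-fold lower (background 22.6%). In PN 51 were lower (background 56.9%), with a median of -0.23 and 2 at least 2-fold lower (background 30.8%). In DN 37 were lower and 36 higher (backgrounds 57.4% and 41.9%), with a median of -0.05 and 1 at least 2-fold lower (background 21%). Set against the median of all genes in the same population, the members lay 0.50 lower in KC, 0.07 higher in PN and 0.12 higher in DN. For 67 of 73 members the KC difference was the most negative of the 3 (background 32.3%, and 31.1% among genes of the members' exon length). KC was highest at 45 h and also lowest in the adult for 37 (background 8.38%, and 9.41% among genes of the members' exon length), which was 18 to 22 under the 4 other scalings of the columns. The count of 67 was 57 to 63 under the same scalings. The backgrounds are those of the deposited scale, and the share over all genes was not computed under the other scalings.

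Direction within 1 population depended on the scale. With each column scaled to 1 sum the medians were -0.22 in KC, 0.24 in PN and 0.48 in DN, and with quantile normalization -0.38, 0.10 and 0.32. Short genes as a class were lower in the adult, with medians of -0.59, -0.82 and -0.44 in KC, PN and DN over 2369 genes of the members' exon length. Against these the members lay 0.17 lower in KC, 0.59 higher in PN and 0.39 higher in DN. In each of these readings KC had the lowest of the 3 values. The KC difference minus the mean of those in PN and DN had a median of -0.65 over the members. This median was -0.01 over all genes kept and 0.08 over genes of the members' exon length. The value was below 0 for 69 of 73 members (background 50.3%). At -1 or below there were 10 members (background 11.4%). A limma fit with a term for KC in the adult, which leaves 1 residual degree of freedom, called no gene of 8867 in either direction (background 0.0%, with 170 higher and 117 lower at an unadjusted p under 0.05) and so no member (1 at an unadjusted p under 0.05). With so few degrees of freedom the fit has little power, and its empty result says nothing about whether the populations differ. No other test of this difference was made.

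**Figure D3:**
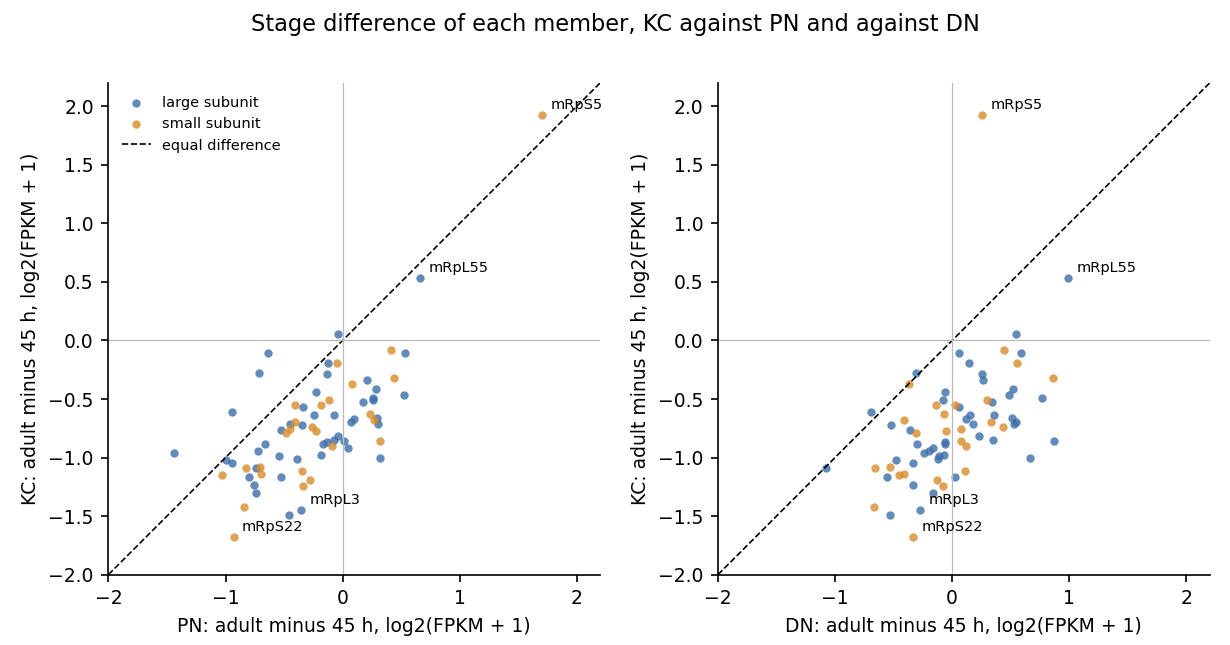
Adult minus 45 h difference in log2(FPKM + 1) of each member in KC (vertical) against PN (left) and DN (right), blue for the large and orange for the small subunit, with the dashed line where both are equal. Most points lie below the line, 67 of 73 below it in both panels; mRpS5 is the highest point in both, far right against PN and mid-range against DN, and mRpL55 is next in height.

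The most negative stage differences in KC were those of mRpS22 (96.1 to 29.3 FPKM, -1.68), mRpL11 (60.4 to 20.9, -1.49), mRpL3 (74.9 to 26.8, -1.45), mRpS21 (101 to 37.0, -1.42) and mRpL43 (109 to 43.8, -1.30). In PN these went from 85.0 to 44.1 (mRpS22), 47.7 to 34.5 (mRpL11), 94.9 to 74.1 (mRpL3), 99.7 to 55.2 (mRpS21) and 100.1 to 59.4 FPKM (mRpL43). In DN mRpS22 went from 86.1 to 68.0, mRpL11 from 47.0 to 32.1, mRpL3 from 86.9 to 71.9, mRpS21 from 126 to 79.1 and mRpL43 from 82.1 to 73.4 FPKM. All of these genes were lower in the adult in each population, and least so in DN for mRpS22, mRpL3, mRpS21 and mRpL43. The gap between KC and the mean of PN and DN was widest for mRpL48, which went from 281 to 140 FPKM in KC (-1.004), from 167 to 208 in PN (0.32) and from 130.1 to 207 in DN (0.66). Next was mRpL40, at 67.5 to 36.7 in KC (-0.86), 51.4 to 52.0 in PN (0.02) and 36.1 to 67.0 in DN (0.87).

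Both subunits, as read from the names, had like medians. In KC the stage median was -0.72 for the large and -0.77 for the small subunit, with 45 of 47 and 25 of 26 lower in the adult. In PN the medians were -0.18 and -0.27 and in DN 0.02 and -0.06. The 44 members with a bacterial counterpart had stage medians of -0.71, -0.31 and 0.03 in KC, PN and DN, and the 29 without one -0.79, -0.18 and -0.06. At 45 h the KC minus PN median was 0.46 for members without a counterpart and 0.24 for those with one, while the KC minus DN median was 0.29 for both. For the stalk, mRpL10 had a KC stage difference of -0.11, mRpL11 of -1.49 and mRpL12, which carries translation factors to the ribosome, of -0.67 (187 to 117 FPKM). By the catalytic centre mRpL2 differed by -1.23 (237 to 100.3 FPKM), mRpL3 by -1.45, mRpL16 by -0.72 (142 to 86.3) and mRpL27 by -0.29 (261 to 213). Along the exit tunnel mRpL4 differed by -0.34, mRpL22 by -1.05 (266 to 128), mRpL23 by -0.66 (237 to 149.6), mRpL24 by -0.47 (137 to 98.9) and mRpL47, the counterpart of bacterial L29, by -0.63 (177 to 114). The gene mRpL45, whose human counterpart holds the ribosome at the inner membrane, went from 91.5 to 63.4 FPKM in KC (-0.52), 87.4 to 98.7 in PN and 75.4 to 95.7 in DN. The gene mRpS29, counterpart of the human GTP-binding protein DAP3, went from 87.8 to 51.5 FPKM in KC (-0.76), from 58.2 to 42.5 in PN (-0.45) and from 54.9 to 58.0 in DN (0.08). Each of these genes was lower in adult than in pupal KC, by amounts that ranged from -0.11 to -1.49 within the stalk alone.

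Most members followed the mean of the others over the 6 columns. The correlation of a member's log2 values with the mean of the other members had a median r of 0.78, was over 0.5 for 54 and below 0 for 4, as a description over 6 columns that all genes share. The correlation of genes outside the list with the members' mean was not computed. These counts are therefore not read as particular to the members. Closest to the mean pattern were mRpL41 (r = 0.98), mRpS26 (0.97), mRpS25 (0.95), mRpS22 (0.93), mRpS33 (0.93) and mRpL43, mRpL2, mRpL32, mRpL49 and mRpS23 (0.92 each). The gene mRpL41 had 129 FPKM in pupal KC, 93.9 in PN and 110.3 in DN, and 69.7, 83.5 and 105 in the adult. The members below 0 were mRpS5 (-0.80), mRpL55 (-0.47), mRpS11 (-0.08) and mRpL28 (-0.07).

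The gene mRpS5 stood apart from the rest. It codes for the counterpart of a bacterial protein at the channel by which messenger RNA enters the small subunit, and lies at chromosome 3L, 24537236 to 24543534 (dm6), with 1682 exonic bases that overlap no other annotated gene. At 45 h its FPKM was 30.9 for KC, 80.2 for PN and 83.7 for DN, and in the adult at 120.0, 264 and 100.4. Its lowest column was thus the one in which the other members were highest. KC was lower than PN by 1.35 at 45 h and by 1.13 in the adult on the log2 scale. The stage difference was 1.93 in KC, 1.70 in PN and 0.26 in DN, and the highest column was 8.54-fold above the lowest, the widest ratio among the members. It was the only member at least 2-fold higher in the adult in KC (background 17.9%) and in PN (background 23.3%). Leaving 1 of 73 members out can move a median only to a neighbouring rank. Without mRpS5 the KC minus PN median at 45 h was 0.3355, in place of 0.3322.

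The gene mRpL55 (chromosome 3R, 19094394 to 19094905) was the other member with all 3 adult columns above all 3 pupal ones (background 15.9%). It had 115.2 FPKM in pupal KC, 122 in PN and 117 in DN, and 167, 193 and 233 in the adult, with stage differences of 0.53, 0.66 and 0.99. With 24 members the 3 adult columns lay all below the 3 pupal ones (background 29.5%), a count that was 1 with columns scaled to 1 sum and 44 without the adult DN column. The other direction gave 12 members with columns scaled to 1 sum and 8 without the pupal KC column. Leaving out a column can only keep or raise such a count. The share over all genes was not computed for these settings.

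Effects common to the columns were tested with limma in an additive model of population and stage over the 6 columns, whose p-values set an effect against how far the populations' differences changed between stages and not against animals. For the stage, 2 of 73 members were lower in the adult at a Benjamini-Hochberg adjusted p under 0.05 (background 17.0%) and none higher (background 8.03%). At an unadjusted p under 0.05, 15 were lower (background 27.4%) and 2 higher (background 15.6%). The gene mRpL53 (chromosome 2R, 13954195 to 13955664) had 211 FPKM in pupal KC, 160 in PN and 209 in DN, and 98.7, 95.04 and 98.5 in the adult (-0.97, SE 0.24, adjusted p = 0.0338). All its exonic bases lie in exons of AGO1 on the same strand, which went from 4.76, 6.09 and 9.82 FPKM to 31.1, 121 and 27.5, so reads of the pair may have been split by the authors' estimate. The gene mRpS21 (chromosome 3R, 13381276 to 13381809) was at 101, 99.7 and 126 FPKM and then at 37.0, 55.2 and 79.1 (-0.98, SE 0.27, adjusted p = 0.0459). Of its exonic bases 48.0% are shared with CG8870 on the other strand, which was at no more than 1.03 FPKM in any column. AGO1 and CG8870 were named after their values were seen. Both calls were lost under each of the 3 scalings fitted (quantile, upper quartile, same sum), where the called members were instead mRpS5 and mRpL55, higher in the adult. With 1 column left out the fit rests on 1 column for that population, so its calls are not read here. The member median of the stage effect was then -0.50 to -0.13, beside -0.29 with all 6 columns.

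For the differences between populations common to both stages no member was called: KC minus PN (backgrounds 0.304% higher and 0.485% lower), KC minus DN (0.293% and 0.462%) and PN minus DN (0.0226% and 0.0%). At an unadjusted p under 0.05 there were 2 members lower in KC than in PN (background 8.8%) and none in the other directions. Differences that change sign between the stages enter the residual of this fit, which has 2 degrees of freedom. It thus has little power for differences of the members' size, and no conclusion is drawn from the absence of calls. The member medians in this fit, which averages both stages, were 0.09, -0.08 and -0.18, between the values of opposite sign at each stage for KC.

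Many members are packed against other genes. With the annotated exons, 43 of 73 overlap an exon of another gene, and the same 43 share the locus string of the table with a neighbour. The overlap is with the opposite strand for 42 and with the same strand for 3. For 2 members, mRpL53 and mRpS24, it covers more than 50% of the exonic bases. No source used here says whether reads were assigned by strand. The stage medians of the 30 members with a locus of their own were -0.75 in KC, -0.11 in PN and -0.02 in DN, and those of the 43 others -0.76, -0.26 and -0.05. The 49 kept neighbours that share a locus with members had medians of -0.52, -0.58 and -0.31.

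Other genes of the organelle were set beside the members. Their stage medians are on the deposited scale and were not recomputed under other scalings. The ribosomal proteins tko (S12) and bonsai (S15) belong to the same ribosome under names of their own. From 45 h to the adult tko went from 232 to 140 FPKM in KC, 204 to 129 in PN and 282 to 191 in DN, and bonsai from 79.3 to 53.2, 52.4 to 50.05 and 55.7 to 71.0. Nuclear genes for subunits of oxidative phosphorylation, the complexes that the mitochondrial ribosome helps to build, had stage medians of -0.07 in KC, 0.41 in PN and 0.67 in DN over 67 kept genes, with 21 at least 2-fold higher in adult DN (background 11.8%), 8 in adult PN (background 23.3%) and none in adult KC (background 17.9%), where 1 was at least 2-fold lower (background 22.6%). The order of the populations was the same as in the members. Within a stage their medians were 0.16 for KC minus PN and 0.30 for KC minus DN at 45 h, and -0.31 and -0.49 in the adult, beside 0.33, 0.29, -0.21 and -0.48 for the members.

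Genes that act with the ribosome, or on the mitochondrial genome and import, were read the same way. Translation factors and tRNA synthetases of the mitochondrion had stage medians of -0.46, 0.09 and 0.36 in KC, PN and DN over 24 genes. At least 2-fold lower in the adult were 4, 2 and 2 of them (backgrounds 22.6%, 30.8% and 21%). The elongation factor gene mEFTu1 had 233 FPKM in pupal KC, 203.3 in PN and 203.2 in DN, and 131, 188 and 203 in the adult. The gene mRRF1, for the factor that recycles ribosomes, was at 24.3, 23.1 and 19.0 and then at 9.86, 9.31 and 8.04, lower in the adult in all 3. Genes for mitochondrial DNA and RNA had -0.78, -0.23 and -0.05 over 11, with TFAM, which packs mitochondrial DNA, at 114, 49.8 and 60.8 FPKM at 45 h and 65.7, 39.2 and 46.5 in the adult. Import genes had -0.39, 0.02 and 0.12 over 13. Of the regulators looked at, srl (the fly's PGC-1) was at 1.78 to 4.29 FPKM, Dref at 31.5 to 57.2, ewg at 32.8 to 51.6 and Myc at 0.153 to 12.5. Their stage differences in KC, PN and DN were 0.77, 0.54 and 0.13 for srl and 2.13, 3.55 and 0.88 for Myc. For Dref they were -0.45, -0.62 and -0.53, and for ewg -0.03, -0.37 and 0.08.

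Outside the organelle the stage medians had another order. Cytosolic ribosomal protein genes had stage medians of -1.03 in KC, -1.81 in PN and -1.17 in DN over 83 genes. Of these, 45, 81 and 57 were at least 2-fold lower in the adult (backgrounds 22.6%, 30.8% and 21%). Proteasome subunit genes had stage medians of -1.52, -1.87 and -1.30 over 31. In both lists the lowest of the 3 medians was that of PN, and in the members it was that of KC. PN was also lowest over all genes kept (-0.30, beside -0.26 in KC and -0.17 in DN). The same held over genes of the members' exon length (-0.82, beside -0.59 and -0.44). In the adult the KC minus PN median was 0.81 for cytosolic ribosomal proteins and 0.80 for the proteasome against -0.21 for the mitochondrial ribosome. Other parts of the pattern were shared. At 45 h the proteasome had medians of 0.37 (KC minus PN) and 0.34 (KC minus DN), beside 0.33 and 0.29 for the members. For cytosolic ribosomal proteins these were -0.0048 and 0.0176. The adult PN minus DN median was -0.63 for cytosolic ribosomal proteins, -0.62 for the proteasome and -0.30 for the members.

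**Figure D4:**
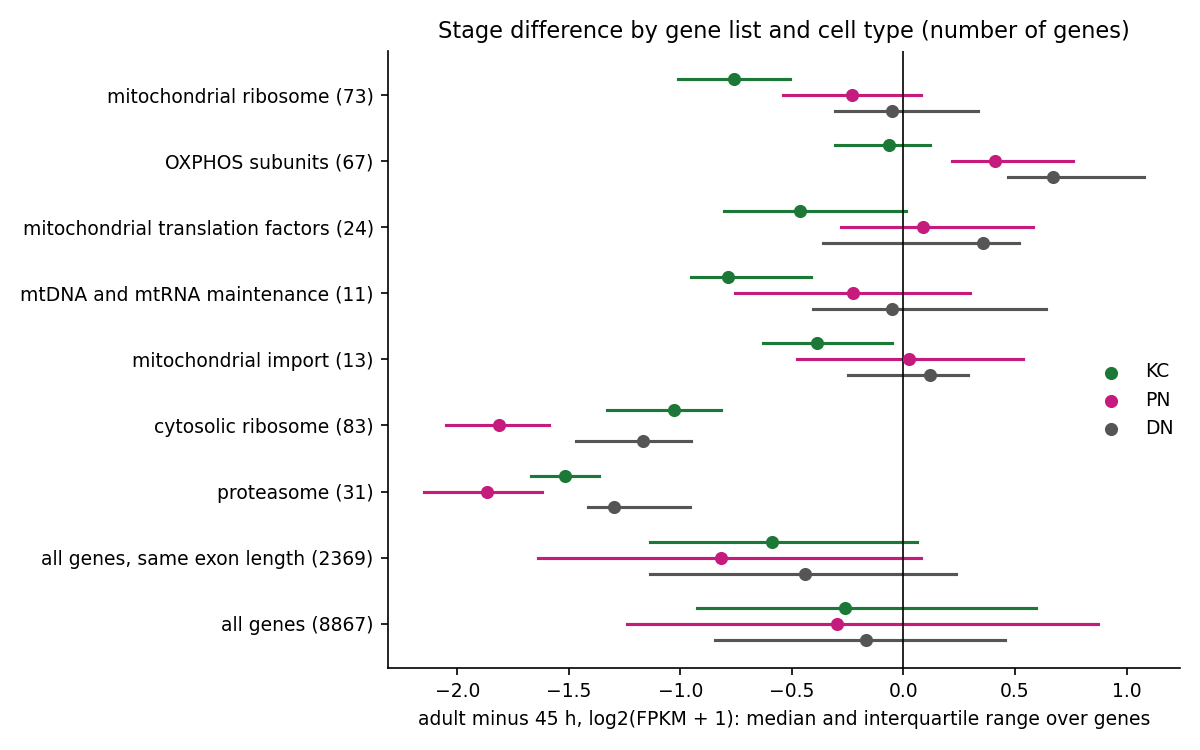
Adult minus 45 h difference in log2(FPKM + 1) for each gene list, as the median (point) and interquartile range over genes (line), in KC (green), PN (pink) and DN (grey), with the number of genes in brackets. The mitochondrial ribosome and the OXPHOS (oxidative phosphorylation) subunits share the order KC, PN, DN, and the cytosolic ribosome and the proteasome have medians below -1 in each population with PN lowest.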

How the data were processed

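PolyA RNA of sorted cells was made into SmartSeq V2 libraries, per the labels' protocols. The authors deposited FPKM values in 1 table; per the submitters' processing notes, TopHat and Cufflinks were used with dm6, their versions not given in the sources used here. Adult columns are the authors' means. Read counts per library were not used here, so depth and counting error are unknown. From 16859 lines, 5 with date-like names were left out. All 73 members matched Ensembl release 115 by symbol. Values were analysed as log2(FPKM + 1), for genes averaging 1 FPKM or more across a stage's 3 columns, or across all 6 for stage differences. Tests used limma 3.58.1 in R 4.3.3 (additive model, mean-variance trend, Benjamini-Hochberg adjustment over 8867 genes, two-sided) and were tested on simulated data. Its model had 2 residual degrees of freedom.

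A bacterial counterpart was assigned from the number in a gene's name, which follows bacterial nomenclature, with mRpL47 and mRpS24 added by hand. Members, lists and roles were chosen with earlier results of these data known. Genes named were, per comparison, the 10 highest and 10 lowest members, those called, the 10 highest and lowest by mean, those closest to and farthest from the mean pattern, members that share a locus string, and the genes of the fixed lists; members named for their role were added with their values known. Alternatives were pseudocounts of 0.1 and 5 FPKM, no filter or 5 FPKM, 4 scalings of the columns, columns left out, members with a shared locus left out and a background of like exon length. The planned list of mitochondrially encoded genes was not analysed here.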

Additional observations from a re-analysis of the deposited data

Results flagged for a closer look

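The direction of the KC difference was not the same at both stages. For KC minus PN the member median was 0.33 at 45 h and -0.21 in the adult, and for KC minus DN it was 0.29 and -0.48. Single members that differed by at least 0.58 in opposite directions were mRpL1 (0.62 and -0.64) and mRpL40 (0.89 and -0.85), both for KC minus DN. The limma term that sets the KC stage difference against that of PN and DN together gave -1.01 for mRpL1 (SE 0.57, adjusted p = 0.9996) and -1.31 for mRpL40 (SE 0.69, adjusted p = 0.9996) and called no member. With 1 residual degree of freedom that fit has little power, and the change in KC minus PN or KC minus DN alone was not tested.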

How the results depend on the processing

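No paired analysis was possible because the columns carry no replicate numbers. Among member medians within a stage, before any background is subtracted, only PN minus DN at 45 h (-0.02, range -0.16 to 0.05) turned its direction. Under the alternatives run, KC minus PN at 45 h ran from 0.11 to 0.34 and KC minus DN from 0.04 to 0.31. Relative to the median of all genes kept, these ran from 0.09 to 0.33 and from 0.05 to 0.29. In the adult KC minus PN ran from -0.24 to -0.13, KC minus DN from -0.72 to -0.43 and PN minus DN from -0.50 to -0.21. The KC stage median of -0.76 became -0.38 with quantile normalization, -0.43 with upper quartile scaling, -0.22 with the same column sum and -0.28 with the same sum of protein-coding genes. In PN, -0.23 turned to 0.10 (quantile), 0.24 (same sum) and 0.0903 (coding sum), and in DN -0.05 became 0.32, 0.48 and 0.31. Against genes of like exon length the members lay at -0.17 (KC) and 0.59 (PN) for the stage and at 0.0229 for adult PN minus DN, in place of -0.50, 0.07 and -0.30 against all genes. With quantile, upper quartile and same-sum scaling, 7, 11 and 1 members had all adult columns below the pupal ones (24 as deposited) and 7, 5 and 12 above (2 as deposited). Leaving out 1 column can only keep or raise the counts as deposited, and gave 24 to 44 below and 2 to 8 above. The share over all genes was not computed for these rescaled or reduced sets. Members with KC highest at 45 h and lowest in the adult were 37 as deposited (background 8.38%). They were 20, 22, 18 and 20 under quantile, upper quartile, same-sum and coding-sum scaling, where the share over all genes was not computed. The stage test called 2 members, 1 with a pseudocount of 5 (502 genes higher and 1239 lower of 8867) and 0 with no trend (486 and 1059 of 8867). It called 4 with a filter of 5 FPKM (769 and 1526 of 7159). With no filter it called 0 of 16854 genes, so the absence of members there says nothing about them. Leaving out a column from the fit with a KC-by-stage term leaves no residual, so it was not run. The last scaling, the set without mRpS5, the KC-by-stage term, the values relative to all genes, the count of 37 above and that of members with the most negative stage difference in KC (67) were added after the data were seen. The number of columns limits all of these results.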
